A study of Mus musculus with 36 samples.

Results

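Macrophages are the resident and blood-derived phagocytes of most tissues, and 10 genes that are widely used to recognise them were followed in cultured mouse mesenchymal stem cells (MSCs), which are plastic-adherent stromal cells. The genes were Mgl2, Clec10a, Mrc1, Adgre1, Itgam, Ptprc, Csf1r, Cd14, Lyz2 and Cd68, 10 of the 24411 genes in each expression table. Mgl2 was chosen by its RNA level in lung MSCs against the other tissues, so that pattern is given as a description with no test, and the other 9 genes were named as macrophage markers with earlier results of these data known. All MSCs came from young adult C57BL6/J mice and were grown in MesenCult medium for at most a few passages. The groups were femoral bone marrow (fBM-MSCs, 3 RNA-seq libraries), vertebral bone marrow (vBM-MSCs, 2 libraries, with replicate 3 not analysed here), adipose tissue (A-MSCs, 3 libraries) and lung (P-MSCs, 3 libraries). Marrow cells were released by crushing the bone, and fat and lung by collagenase, so the isolation method and the tissue cannot be told apart between marrow and the other sources. Chromatin accessibility was available as 1 pooled list of ATAC-seq peaks per tissue.

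Circulating monocytes and tissue macrophages depend on the CSF1 receptor, which binds the growth factors CSF1 and IL-34, and their identity is set by transcription factors such as PU.1, the product of Spi1. They carry CD45, the pan-leukocyte phosphatase encoded by Ptprc, and the integrin subunit CD11b, encoded by Itgam, and most tissue macrophages display the adhesion receptor encoded by Adgre1. Mgl2 and Clec10a encode neighbouring C-type lectins that bind galactose and N-acetylgalactosamine on glycoproteins and are known from macrophages activated by interleukin-4 and from dendritic cells. MSC preparations are grown from whole tissue digests, so adherent macrophages are a known companion of early cultures, and the surface screen of the study counted CD45 among its negative markers.

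The libraries held between 19569650 and 40517739 expected counts, and a count of 0 allows up to 3 counts, or between 0.074 and 0.153 CPM (counts scaled to library size) per library, with counting error only. The MSC label was checked against its markers. Itgb1, Cd44, Ly6a and Vcam1 were above 0 in all 11 libraries and summed to between 983 and 2336 TPM (transcript abundance scaled for length and library size). Of the negative markers, Cd34 RNA reached 79.2, 72.7 and 10.2 TPM in the fBM-MSC libraries. Pecam1, which encodes CD31, reached 3.84 TPM in A-MSC replicate 1, and Ptprc did not exceed 0.35 TPM in any library. The study reported all MSCs as negative for CD34, CD31 and CD45 by flow cytometry, which measures surface protein and not RNA. A-MSC replicate 1 stood apart by its endothelial transcripts, with 49.5 TPM of Emcn against 5.51 and 2.32 TPM in the other A-MSC libraries. The vBM-MSC replicate 2 held transcripts that replicate 1 lacked, among them Fcer1g at 8.21 TPM against 0. The tissues were taken from the same mice, so libraries of different tissues are not from independent animals. Which library came from which mouse is not stated, and the main test treats the libraries as independent. Its p-values set a tissue difference against the spread between libraries, estimated over the 4 tissues together.

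The promoters of 3 of the genes are shown, namely Mgl2, which had RNA and no accessible promoter in P-MSCs, and Lyz2 and Cd68, the members in the promoter table that passed the test in a tissue pair. They span 250 bases before to 50 bases after the start site and were taken from RefSeq in the build GRCm38.p6. Capitals mark the 6 letters GAGGAA, the core bound by PU.1, on either strand. The promoters lie at chr11:70130107-70130406 on the plus strand for Mgl2, at chr10:117282223-117282522 on the minus strand for Lyz2 and at chr11:69666121-69666420 on the minus strand for Cd68.
Mgl2: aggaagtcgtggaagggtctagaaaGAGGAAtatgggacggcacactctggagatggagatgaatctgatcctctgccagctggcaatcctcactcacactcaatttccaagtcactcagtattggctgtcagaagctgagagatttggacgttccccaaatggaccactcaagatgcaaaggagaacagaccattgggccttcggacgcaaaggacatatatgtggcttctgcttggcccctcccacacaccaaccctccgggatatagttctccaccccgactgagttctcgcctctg
Lyz2: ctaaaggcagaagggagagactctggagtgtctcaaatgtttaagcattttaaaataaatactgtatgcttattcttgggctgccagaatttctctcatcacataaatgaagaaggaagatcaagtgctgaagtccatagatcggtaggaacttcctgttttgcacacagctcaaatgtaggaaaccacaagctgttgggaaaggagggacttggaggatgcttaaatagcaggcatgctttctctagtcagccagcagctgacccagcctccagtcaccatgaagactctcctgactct
Cd68: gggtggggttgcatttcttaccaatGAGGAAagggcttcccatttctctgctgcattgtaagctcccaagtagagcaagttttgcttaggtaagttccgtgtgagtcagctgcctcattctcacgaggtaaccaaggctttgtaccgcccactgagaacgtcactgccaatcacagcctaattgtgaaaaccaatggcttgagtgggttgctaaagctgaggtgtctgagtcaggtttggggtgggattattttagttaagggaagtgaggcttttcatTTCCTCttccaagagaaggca
The core was matched once in the Mgl2 promoter, 225 bases before the start site, and in the Cd68 promoter 225 bases before and 29 bases after it. It was not matched in the Lyz2 window. Of all 32851 RefSeq promoters of this length, 28.3% held it. The letters TTNNGNAA, a loose form of the C/EBP site, were matched 1, 1 and 3 times in the Mgl2, Lyz2 and Cd68 promoters, against 40.7% of all promoters with at least 1 match. The AP-1 letters TGANTCA were matched 2 times in the Cd68 promoter, in a set where 7.81% of promoters held them, and not in the other 2 windows. Promoters of 6 of the 10 genes were in the RefSeq table, and a match is a description of letters, not of binding.

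Among the lectins, Mgl2 RNA was abundant in P-MSCs and at or near 0 in every other library. The level was 14.1, 12.8 and 15.4 TPM in the P-MSC libraries, from 522, 360 and 485 expected counts. It was 0 in the 3 fBM-MSC and the 2 vBM-MSC libraries, and the A-MSC libraries held 1 count in all, in replicate 2. The P-MSC mean of 14.1 ± 1.32 TPM (SD, n = 3) was at least 381-fold higher than in fBM-MSCs and at least 283-fold higher than in vBM-MSCs, when the groups at 0 were set to 3 counts per group. Against the single count in A-MSCs the ratio was 1.41e+03, with a 95% counting interval from 252 to 5.56e+04. These values chose the gene, so no test was made. In bulk RNA, fewer cells of a type and less RNA per cell cannot be told apart.

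**Figure D1:**
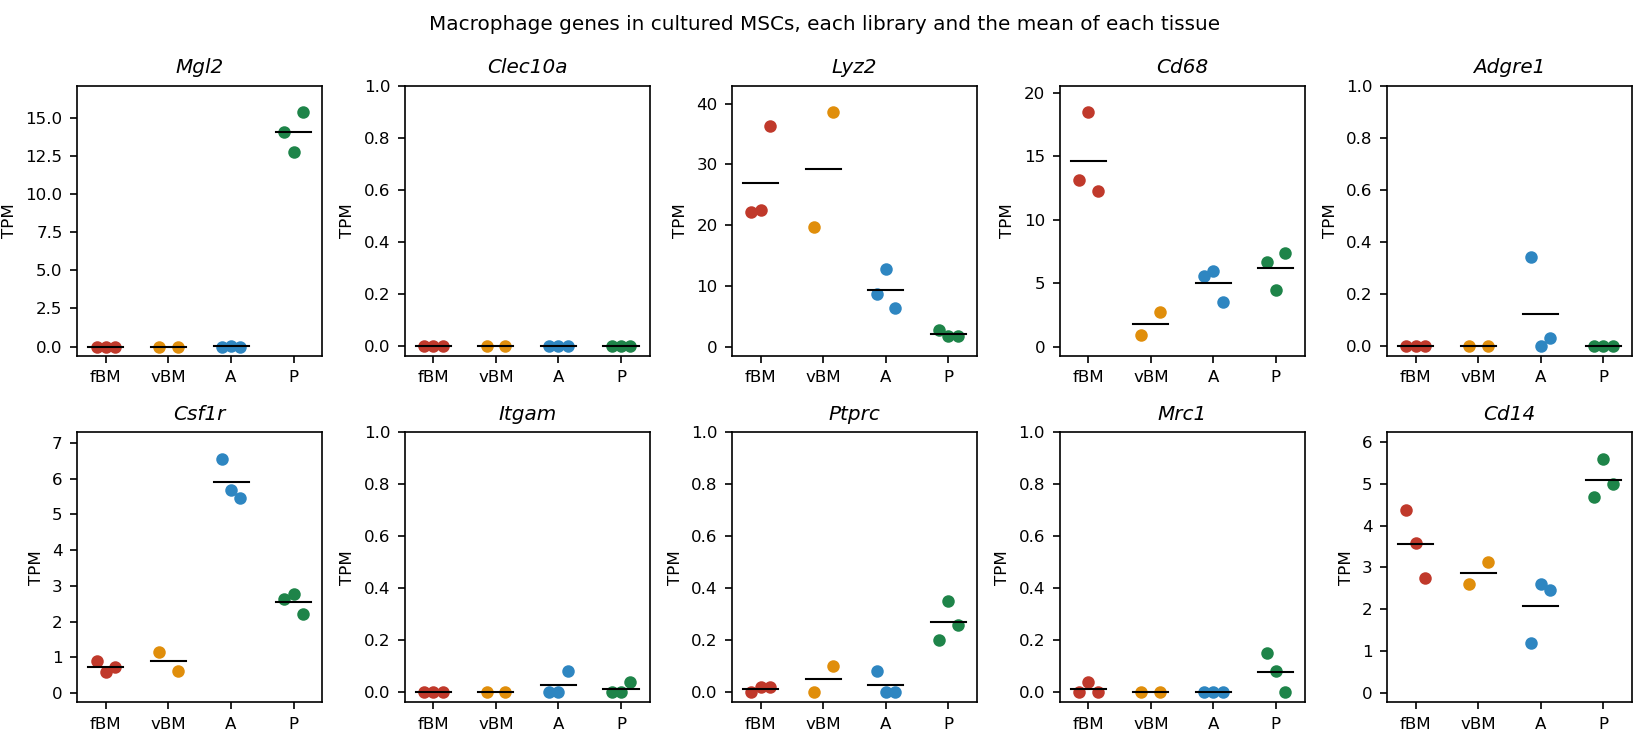
TPM (vertical axes, each from 0 and with its own range) of the 10 macrophage genes in each library, by tissue (fBM, vBM, A and P stand for fBM-MSCs, vBM-MSCs, A-MSCs and P-MSCs). Points are libraries and lines are means. Mgl2 reached between 12.8 and 15.4 TPM in P-MSCs and at most 0.03 TPM elsewhere, while Clec10a was at 0 in all 11 libraries.

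Clec10a, the lectin encoded downstream of Mgl2 on the same strand, was at 0 counts in all 11 libraries. Every count of Mgl2 was whole, so no reads were divided in fractions between Mgl2 and a paralog by RSEM. Mrc1, the mannose receptor of alternatively activated macrophages, was at 0 in 8 of 11 libraries. Its highest levels were 0.15 and 0.08 TPM in P-MSC replicates 1 and 2, from 22 and 9 counts, and P-MSC replicate 3 had none. The lectin RNA of P-MSCs was thus Mgl2 with little of the other 2 genes.

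Mgl2 lies on chromosome 11 at 70130357 to 70137542 on the plus strand, with 10 exons (RefSeq, GRCm38.p6). It overlaps Gm12311, a pseudogene model on the minus strand at 70128969 to 70133805 that has no row in the expression tables, and the Smart-seq2 libraries do not keep strand. Of the 13 other genes annotated within 100 kb, 11 were in the tables. None of the 11 was above 0 in P-MSCs and at 0 elsewhere. Asgr1 and Asgr2, asialoglycoprotein receptor subunits of the same lectin family, had mean levels of 0.02 and 0 TPM in P-MSCs. The nearby Slc16a13, a monocarboxylate transporter, had 8.11 TPM on average in P-MSCs against 4.99 TPM in A-MSCs, 2.58 TPM in fBM-MSCs and 2.27 TPM in vBM-MSCs. 0610010K14Rik reached 67.7 TPM in P-MSCs and 60.1, 52.2 and 40.6 TPM in A-MSCs, vBM-MSCs and fBM-MSCs. Dlg4 was at 2.84 TPM in P-MSCs and between 2.40 and 4.13 TPM in the others. Slc16a11 and Bcl6b had 0.95 and 0.28 TPM in P-MSCs, and Mir497b, Mir497 and Mir195a were at 0 throughout, while Gm32946 has no row.

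Over the 11 libraries, the 5 genes whose log2(TPM + 1) correlated best with Mgl2, of 12508 compared, were Morc1 (r = 0.993), Fendrr (0.992), Mki67 (0.989), Elovl6 (0.989) and Eml1 (0.989). The libraries fall into 2 sets, P-MSCs and all others, so any gene high in P-MSCs ranks highly, and no p is given. Morc1, known from male germ cells, had 3.80 TPM on average in P-MSCs and 0 in all others. Mki67, a marker of dividing cells, had 5.98 TPM in P-MSCs and at most 0.60 TPM in any other library. Fendrr is a long noncoding RNA of lateral mesoderm and lung, and Elovl6 a fatty acid elongase. None of the 5 is one of the macrophage genes listed here.

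Some markers of endothelial and epithelial cells also differed between P-MSCs and the other tissues. Of 8 endothelial markers, 5 were tested. Of these, Kdr reached a CPM of 1 in 2 libraries only through P-MSCs and Cdh5 only through A-MSCs, where they were high. The counts and medians of the 5 are therefore a description. In P-MSCs, 3 were higher and none lower than in fBM-MSCs, where 23% of all genes were higher and 24.7% lower. Against vBM-MSCs 2 were higher and none lower (17.7% and 21% of all genes), and against A-MSCs 2 were higher and 1 lower (14.9% and 16% of all genes). The median log2 fold changes against fBM-MSCs, vBM-MSCs and A-MSCs were 5.29, 4.40 and -2.71. With genes at 0 in a tissue set to 3 counts, the median against vBM-MSCs was 1.98. Kdr, a receptor of the growth factor VEGF, was 2.56 ± 0.259 TPM (SD, n = 3) in P-MSCs and at most 0.55 TPM in any other library. Ptprb, a phosphatase of vessel walls, was 4.09 ± 0.711 TPM (SD, n = 3) in P-MSCs and at most 2.34 TPM elsewhere. The defining markers Pecam1, Cdh5 and Vwf were at most 0.33, 0.08 and 0 TPM in P-MSCs. Emcn, by contrast, was 5.13, 4.69 and 0.14 TPM in the P-MSC libraries and at most 0.21 TPM in marrow. The summed endothelial level was between 7.16 and 12.15 TPM in P-MSCs, between 3.41 and 55.41 TPM in A-MSCs and at most 2.35 TPM in marrow. Of 7 epithelial markers, the keratin gene Krt19 alone was tested and was higher in P-MSCs, at 54.9 ± 4.32 TPM (SD, n = 3) against 18.2 ± 0.966 TPM (SD, n = 3) in A-MSCs (log2 fold change 1.39, SE 0.428, edgeR adjusted p = 0.0289). It was also higher than in fBM-MSCs and vBM-MSCs (log2 fold changes 3.12 and 2.29, edgeR adjusted p = 0.00022 and 0.00468). The epithelial genes Cdh1, Sftpc, Sftpb and Scgb1a1 were at 0 in P-MSCs. Epcam had 0.31 TPM in P-MSC replicate 1 and Cldn4 0.65 TPM in P-MSC replicate 2, from 16 and 22 counts, and both were at 0 in the other P-MSC libraries. The part of such cells in the Mgl2 level was not tested.

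The leukocyte surface genes Ptprc, Itgam and Adgre1 were under 1 TPM in every library. Ptprc was lowest in marrow and fat and was detected in each P-MSC library, at 0.20, 0.35 and 0.26 TPM from 29, 39 and 32 counts. In the other tissues its highest level was 0.10 TPM, from 12 counts in vBM-MSC replicate 2. The P-MSC libraries did not overlap the others, with 100 counts in all against 4 counts in fBM-MSCs, 12 counts in vBM-MSCs and 9 counts in A-MSCs. Itgam had 9 counts in A-MSC replicate 3, 4 counts in P-MSC replicate 3 and none in the other 9 libraries. Adgre1 had 22 counts in A-MSC replicate 1, the library with the high Emcn level, 2 counts in A-MSC replicate 3 and none elsewhere, P-MSCs included. The summed TPM of Clec10a, Adgre1, Itgam, Ptprc and Mrc1 was between 0.30 and 0.43 in P-MSCs, between 0 and 0.42 in A-MSCs, between 0 and 0.10 in vBM-MSCs and between 0 and 0.06 in fBM-MSCs. These 5 genes did not reach a CPM of 1 in 2 libraries and were not tested.

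The other 5 genes passed that filter, Mgl2 through P-MSCs alone, and Lyz2, Cd68, Csf1r and Cd14 were compared between the 3 tissue pairs that did not choose Mgl2. Tests used edgeR's quasi-likelihood F test with Benjamini-Hochberg adjustment over 12509 genes. Between fBM-MSCs and A-MSCs, 2 of these 4 were higher in fBM-MSCs and 1 in A-MSCs, where 40.9% of all tested genes were called, 20.6% higher in fBM-MSCs and 20.3% higher in A-MSCs. Between vBM-MSCs and A-MSCs, 1 was higher in vBM-MSCs and 2 in A-MSCs, where 25.6% of all genes were called, 13.2% higher in vBM-MSCs and 12.4% higher in A-MSCs. Between the 2 marrow sources, 1 was higher in fBM-MSCs and none in vBM-MSCs, where 12.8% of all genes were called, 5.24% higher in fBM-MSCs and 7.56% higher in vBM-MSCs. With so few genes, these counts are a description of the list.

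**Figure D2:**
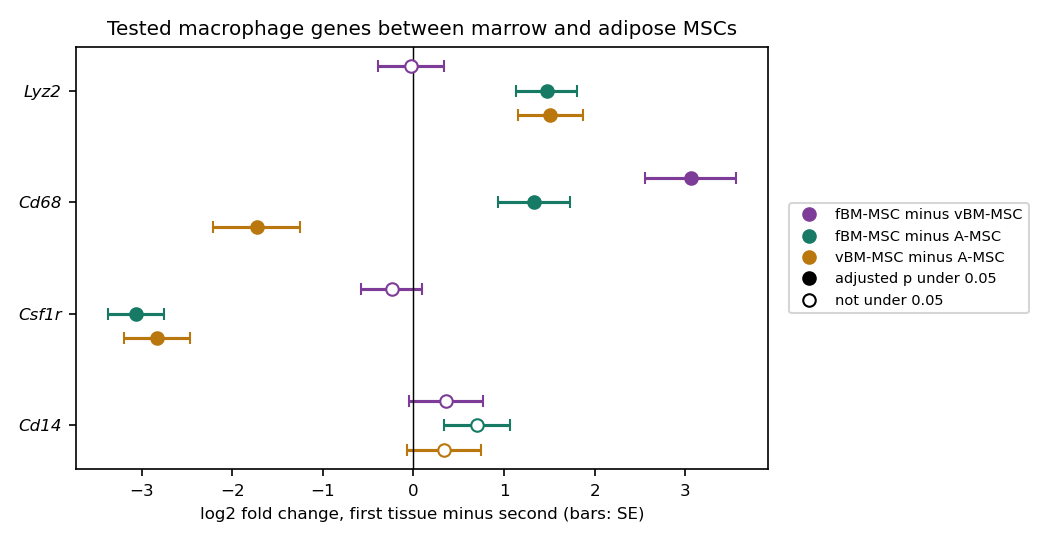
Log2 fold change (horizontal axis, first tissue minus second, bars are SE) of the 4 tested genes in the 3 tissue pairs that did not choose Mgl2. Filled points had an adjusted p under 0.05. Cd68 differed in all 3 pairs, Lyz2 and Csf1r in opposite directions between marrow and fat, and Cd14 in none.

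Csf1r, the receptor tyrosine kinase for CSF1 and IL-34, was highest in A-MSCs. Its level was 6.56, 5.69 and 5.46 TPM in A-MSCs, 2.64, 2.76 and 2.21 TPM in P-MSCs, 1.16 and 0.61 TPM in vBM-MSCs and 0.89, 0.60 and 0.73 TPM in fBM-MSCs. The A-MSC and P-MSC libraries overlapped neither each other nor the marrow libraries, and the marrow sources overlapped. Csf1r was 8.36-fold lower in fBM-MSCs than in A-MSCs (log2 fold change -3.06, SE 0.313, edgeR adjusted p = 2.83e-05) and 7.09-fold lower in vBM-MSCs (log2 fold change -2.83, SE 0.362, edgeR adjusted p = 0.000312). Between the marrow sources the log2 fold change was -0.24 (SE 0.337, edgeR adjusted p = 0.693). The P-MSC mean of 2.54 ± 0.289 TPM (SD, n = 3) was 3.43 times the fBM-MSC mean and 2.33 times below the A-MSC mean of 5.90 ± 0.580 TPM, as a description.

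Cd14, the lipopolysaccharide co-receptor that hands its ligand to TLR4, was present at a few TPM in every library. It was 4.69, 5.60 and 4.99 TPM in P-MSCs, 4.36, 3.59 and 2.74 TPM in fBM-MSCs, 2.61 and 3.13 TPM in vBM-MSCs and 1.20, 2.60 and 2.45 TPM in A-MSCs. The P-MSC libraries lay above all others by a small gap, and the other 3 tissues followed in the order given, fBM-MSCs overlapping vBM-MSCs but not A-MSCs. No pair of marrow and fat passed the test, with log2 fold changes of 0.36 (SE 0.412) for fBM-MSCs over vBM-MSCs, 0.70 (SE 0.368) for fBM-MSCs over A-MSCs and 0.34 (SE 0.407) for vBM-MSCs over A-MSCs. The edgeR adjusted p-values were 0.619, 0.153 and 0.588.

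Among the lysosomal and granule genes, Lyz2, the lysozyme of macrophages and neutrophils, was highest in marrow. It was 22.2, 22.4 and 36.4 TPM in fBM-MSCs, 19.8 and 38.6 TPM in vBM-MSCs, 8.69, 12.8 and 6.32 TPM in A-MSCs and 2.71, 1.81 and 1.76 TPM in P-MSCs. The marrow sources overlapped, and A-MSCs and P-MSCs formed separate lower ranges. Lyz2 was 2.78-fold higher in fBM-MSCs than in A-MSCs (log2 fold change 1.47, SE 0.333, edgeR adjusted p = 0.0047). It was 2.84-fold higher in vBM-MSCs than in A-MSCs (log2 fold change 1.51, SE 0.36, edgeR adjusted p = 0.0108), and without vBM-MSC replicate 2 this call was lost (log2 fold change 1.09, edgeR adjusted p = 0.104). Between the marrow sources the log2 fold change was -0.03 (SE 0.362, edgeR adjusted p = 0.967). The P-MSC mean of 2.09 ± 0.535 TPM (SD, n = 3) was 12.9 times below that of fBM-MSCs, so the tissue with the most Mgl2 had the least Lyz2. Lyz2 shares reads with its paralog Lyz1, which was at most 0.63 TPM, and its counts were split between them by RSEM.

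Cd68, a lysosomal membrane glycoprotein, was highest in fBM-MSCs and lowest in vBM-MSCs. It was 13.1, 18.5 and 12.3 TPM in fBM-MSCs, 6.67, 4.48 and 7.38 TPM in P-MSCs, 5.56, 5.97 and 3.47 TPM in A-MSCs and 0.87 and 2.72 TPM in vBM-MSCs. P-MSCs and A-MSCs overlapped, and fBM-MSCs and vBM-MSCs stood clear of them on either side. Cd68 was 8.31-fold higher in fBM-MSCs than in vBM-MSCs (log2 fold change 3.06, SE 0.502, edgeR adjusted p = 0.00305). It was 2.51-fold higher in fBM-MSCs than in A-MSCs (log2 fold change 1.33, SE 0.395, edgeR adjusted p = 0.0195), and the call was lost without fBM-MSC replicate 2 (adjusted p = 0.0774) or A-MSC replicate 3 (adjusted p = 0.0715). It was 3.32-fold lower in vBM-MSCs than in A-MSCs (log2 fold change -1.73, SE 0.477, edgeR adjusted p = 0.0211), a call that was lost without vBM-MSC replicate 1 (log2 fold change -1.17, adjusted p = 0.109), A-MSC replicate 1 (adjusted p = 0.0522) or A-MSC replicate 2 (adjusted p = 0.0509), and when only these 2 tissues were fitted (adjusted p = 0.101). Thus Cd68 and Lyz2 did not share an order, as vBM-MSCs were high for Lyz2 and lowest for Cd68.

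To place these genes, 42 other macrophage genes were examined, of which 12 were at 0 in all libraries and 31 were under 1 TPM in all of them. The complement genes C1qa, C1qb and C1qc did not exceed 0.25, 0.05 and 0.44 TPM, and Tyrobp, the adaptor of many myeloid receptors, did not exceed 0.80 TPM. Spi1 was at 0 counts in 10 of 11 libraries and at 0.50 TPM in vBM-MSC replicate 2, from 13 counts. In P-MSCs, 26 of the 42 were at 0 in every library, and the list summed to between 9.23 and 9.73 TPM, against 32.9 to 47.2 TPM in fBM-MSCs, 14.8 to 28.04 TPM in vBM-MSCs and 37.7 to 45.4 TPM in A-MSCs. The tissue with Mgl2 RNA therefore had the lowest sum of the other macrophage genes, in ranges that did not overlap.

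Only 8 of the 42 genes passed the filter, some of them only through the tissue where they were high, so the counts and medians of these 8 describe the list and support nothing further. In P-MSCs against fBM-MSCs, 6 of the 8 were lower in P-MSCs and none was higher (median log2 fold change -2.56, against -0.02 over all genes), where 47.7% of all genes were called, 23% higher in P-MSCs and 24.7% higher in fBM-MSCs. Against vBM-MSCs, 5 were lower in P-MSCs and none higher (median -1.52, all genes -0.03), where 38.7% were called, 17.7% higher in P-MSCs and 21% higher in vBM-MSCs. Against A-MSCs, 3 were lower in P-MSCs and 1 higher, where 30.9% were called, 14.9% higher in P-MSCs and 16% higher in A-MSCs. The median in that pair was -1.52, or -2.62 over 6 genes when genes at 0 in a tissue were set to 3 counts and those at or under 3 counts in both were left out, against 0.01 over all genes. Between fBM-MSCs and A-MSCs, 3 were higher in fBM-MSCs and 2 in A-MSCs (median 2.06, all genes 0.03). In that pair 40.9% of all genes were called, 20.6% higher in fBM-MSCs and 20.3% higher in A-MSCs. Between vBM-MSCs and A-MSCs, 3 were higher in vBM-MSCs and 2 in A-MSCs (median -0.93, all genes 0.03). Here 25.6% of all genes were called, 13.2% higher in vBM-MSCs and 12.4% higher in A-MSCs. Between the marrow sources edgeR called 0 (3 of the 8 had an unadjusted p under 0.05), where it called 12.8% of all genes (median 1.41, all genes 0.02). DESeq2 called 2 and limma-trend 3, and no share over all genes is given for them, so those counts are not compared with all genes. The vBM-MSC counts rest on 2 libraries. The 5 calls between vBM-MSCs and A-MSCs became 2 without vBM-MSC replicate 2, A-MSC replicate 1 or A-MSC replicate 3, and 3 without A-MSC replicate 2. The 5 calls between P-MSCs and vBM-MSCs became 3 without vBM-MSC replicate 2, P-MSC replicate 1 or P-MSC replicate 2. The 0 calls between the marrow sources became 2 without vBM-MSC replicate 2 and 1 without A-MSC replicate 2.

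**Figure D3:**
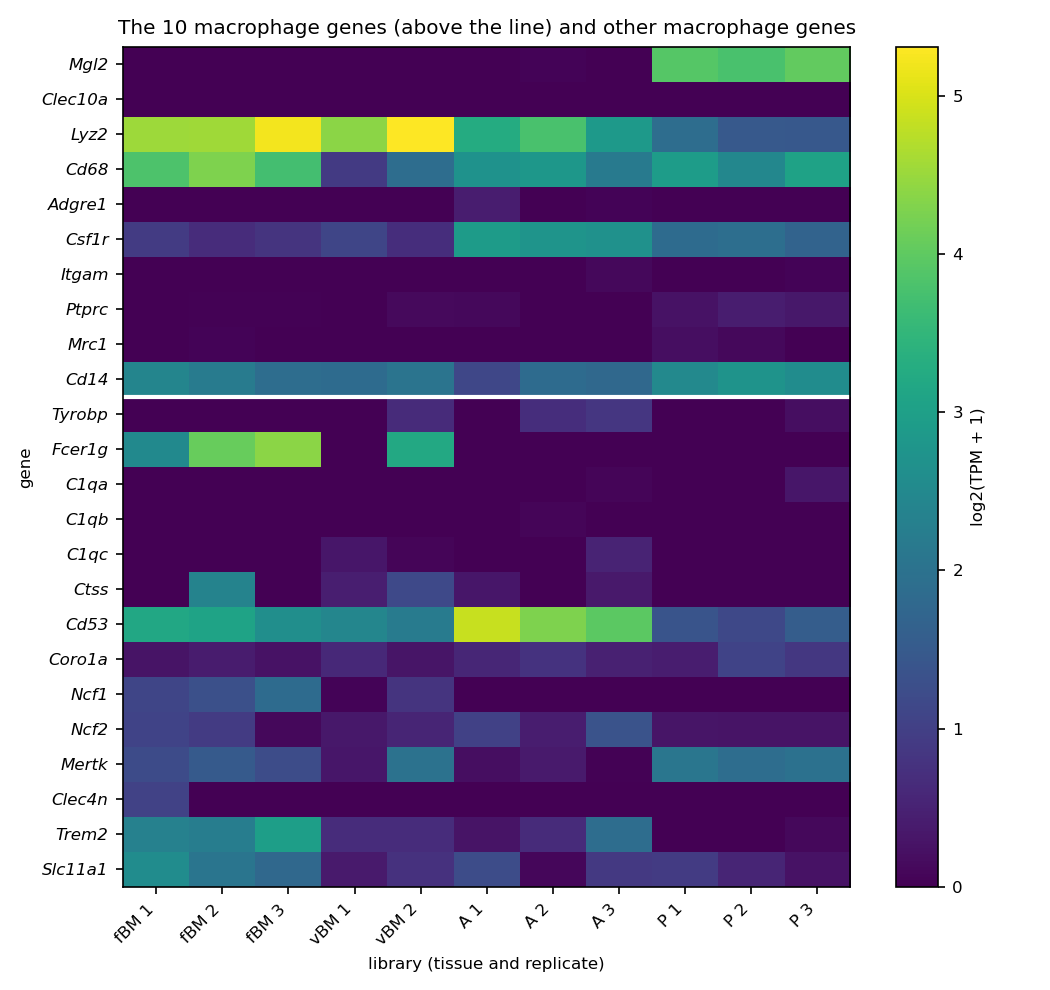
Log2(TPM + 1) (colour) of the 10 macrophage genes, above the white line, and, below it, of the other macrophage genes that reached 1 TPM in any library together with Tyrobp, C1qa, C1qb and C1qc, in the 11 libraries (1 gene that reached it is not shown). Cd53 was highest in the 3 A-MSC libraries, Trem2 was highest in the 3 fBM-MSC libraries, and Mgl2 was the brightest macrophage gene of P-MSCs.

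Fcer1g, Ncf1 and Trem2 passed the filter mostly or only through marrow, where they were high, so their values are given as a description. Fcer1g, the signalling chain shared by Fc receptors, was 4.70, 15.9 and 19.8 TPM in fBM-MSCs, 0 and 8.21 TPM in vBM-MSCs and 0 in all A-MSC and P-MSC libraries. Pooled over libraries it was at least 149-fold higher in fBM-MSCs than in A-MSCs and at least 144-fold higher than in P-MSCs. Ncf1, a subunit of the phagocyte oxidase, was 1.16, 1.47 and 2.64 TPM in fBM-MSCs, 0.04 and 0.74 TPM in vBM-MSCs and 0 in all A-MSC and P-MSC libraries, at least 120-fold lower in A-MSCs than in fBM-MSCs. Trem2, a lipid receptor of macrophages and osteoclasts, was 4.03, 3.75 and 6.88 TPM in fBM-MSCs, 0.59 and 0.60 TPM in vBM-MSCs and 0.22, 0.57 and 2.73 TPM in A-MSCs. It had 2 counts in P-MSCs in all, a ratio of fBM-MSCs over P-MSCs of 159 (95% counting interval 43.6 to 1.32e+03). The tissue highest for Cd68 was also highest on average for Fcer1g, Ncf1 and Trem2, and their part in the Cd68 result was not tested.

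In A-MSCs the tetraspanin gene Cd53 was 28.3, 18.5 and 14.7 TPM, against 1.58 ± 0.37 TPM (SD, n = 3) in P-MSCs (log2 fold change of P-MSCs over A-MSCs -3.88, SE 0.303, edgeR adjusted p = 1.24e-05). Cd53 was also higher in A-MSCs than in fBM-MSCs (log2 fold change of fBM-MSCs over A-MSCs -1.64, SE 0.274, edgeR adjusted p = 0.000721) and vBM-MSCs (log2 fold change of vBM-MSCs over A-MSCs -2.46, SE 0.331, edgeR adjusted p = 0.000429). Thus Csf1r and Cd53 were highest in the same tissue, which also had the most counts of Adgre1 (24, of which 22 in replicate 1, against 0 in every other tissue) and of Itgam (9, all in replicate 3, against 4 in P-MSCs and 0 in marrow). Ptprc went the other way, with 100 counts in P-MSCs against 12 counts in vBM-MSCs and 9 counts in A-MSCs, and Fcer1g and Ncf1 were at 0 in A-MSCs. The part of other cells in the Csf1r and Cd53 results was not tested. The gene of the list that was higher in P-MSCs was Mertk, a receptor for apoptotic cells, at 2.99 ± 0.26 TPM (SD, n = 3) against 0.16 ± 0.15 TPM (SD, n = 3) in A-MSCs (log2 fold change 4.02, SE 0.859, edgeR adjusted p = 0.00498).

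Of 14 macrophage transcription factors, Spi1, Irf8, Ikzf1 and Batf3 stayed under 1 TPM in all libraries and 10 were tested. In P-MSCs, 4 were lower and 1 was higher than in fBM-MSCs, 4 were lower than in vBM-MSCs, and 5 were lower and 1 higher than in A-MSCs. These calls are 50%, 40% and 60% of the 10, against 47.7%, 38.7% and 30.9% of all genes, so those against the marrow sources are near the share over all genes. Cebpa, which drives myeloid and fat cell genes, was 0.07 ± 0.07 TPM (SD, n = 3) in P-MSCs and 3.26 ± 1.08 TPM (SD, n = 3) in fBM-MSCs (log2 fold change -5.51, SE 0.656, edgeR adjusted p = 4.51e-05). Maf and Irf5 were lower in P-MSCs than in each of the other tissues, with log2 fold changes between -2.65 and -1.77. Tfec, a factor of the MiT family found in macrophages, was the one that was higher in P-MSCs than in fBM-MSCs (6.36 ± 1.45 against 0.56 ± 0.38 TPM, SD, n = 3 each, log2 fold change 3.40, SE 1.01, edgeR adjusted p = 0.0157).

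ATAC-seq marks open chromatin, and each deposited list holds the summits of accessible regions of 1 tissue with their fold enrichment over the genome and −log10 q. Of the 10 genes, 2 had a summit with −log10 q of at least 7 within 1 kb of a start site in fBM-MSCs, 1 gene in vBM-MSCs, 4 genes in A-MSCs and 3 genes in P-MSCs. The share of all 23045 genes with such a summit was 52%, 52.9%, 54% and 53.1% in the same order. Each tissue has 1 pooled list, so no test was possible. The genes with a promoter summit were, in each tissue, among Lyz2, Cd68, Csf1r and Cd14.

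Mgl2 had no summit within 1 kb of its start site and none in the gene in any tissue, at any q. In P-MSCs, where its RNA was abundant, the nearest summit lay 15.7 kb before the start site with a fold enrichment of 4.41 (−log10 q 4.6), and another lay 20.9 kb after it with 4.05 (−log10 q 3.8). The summit about 15.6 kb before the start was also in the lists of fBM-MSCs, vBM-MSCs and A-MSCs, with fold enrichments of 5.52, 5.15 and 5.52. The summit 20.9 kb after the start was also in the list of A-MSCs, with 4.78, and in neither marrow list. For scale, of 1629 tested genes with a mean between 10 and 20 TPM in P-MSCs, a range chosen after the level of Mgl2 was seen, 95.9% had a promoter summit of that q in P-MSCs and 42 genes, or 2.58%, had no summit within 1 kb at any q.

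**Figure D4:**
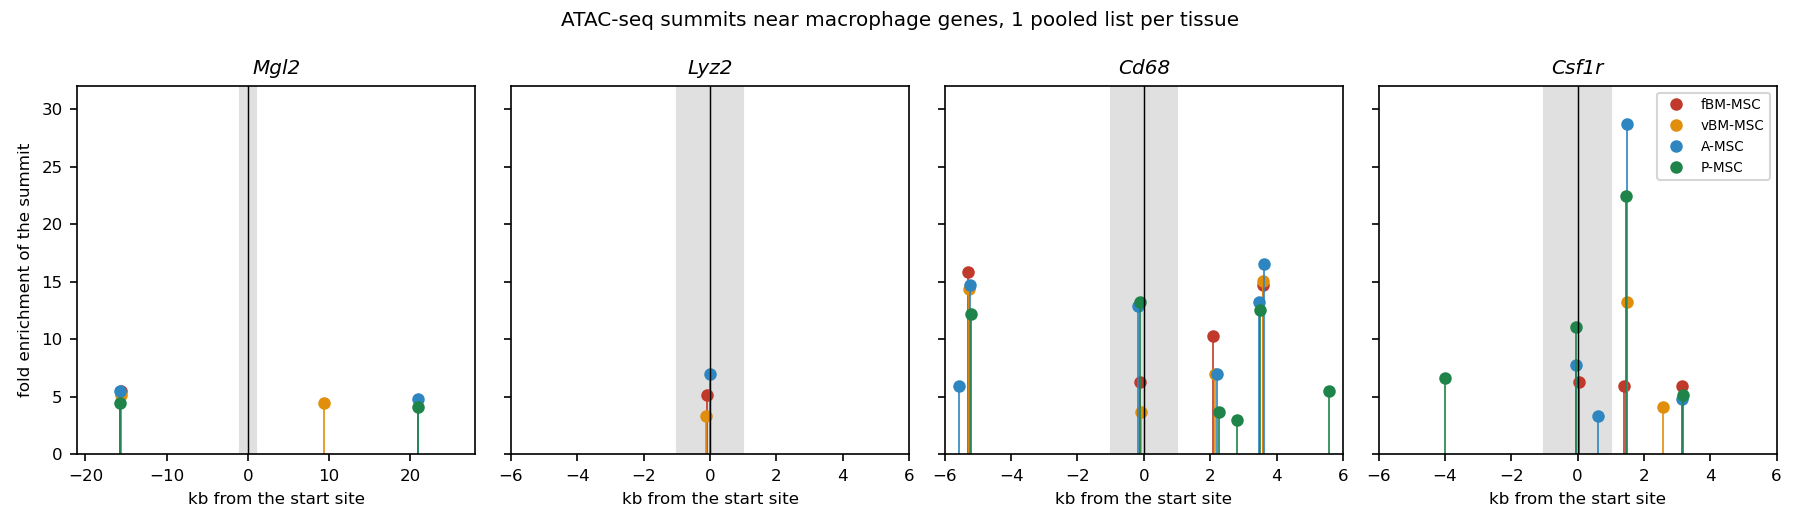
Fold enrichment (vertical axis) of ATAC-seq summits by distance from the start site in kb (horizontal axis, positive in the direction of transcription, wider for Mgl2) in the pooled list of each tissue, at any q. Grey marks 1 kb on either side. Mgl2 has no summit within 9.3 kb of its start, Lyz2 has one in all tissues but P-MSCs, and Cd68 has one in all 4.

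At the Lyz2 start, A-MSCs had a summit with a fold enrichment of 6.99 (−log10 q 11.1), fBM-MSCs one of 5.15 (−log10 q 6.2) and vBM-MSCs one of 3.31 (−log10 q 2.3). P-MSCs, with the lowest Lyz2 RNA, had none nearer than 47.0 kb. The order of accessibility and of RNA differed, since A-MSCs had the strongest summit and less Lyz2 RNA than either marrow source. At the Cd68 start the fold enrichment was 13.2 in P-MSCs (−log10 q 31.2), 12.9 in A-MSCs (29.9), 6.25 in fBM-MSCs (9.0) and 3.68 in vBM-MSCs (3.0), while Cd68 RNA was highest in fBM-MSCs. The vBM-MSCs were lowest in both measures. At the Csf1r start it was 11.04 in P-MSCs, 7.73 in A-MSCs and 6.25 in fBM-MSCs, with no summit within 1 kb in vBM-MSCs. A second Csf1r summit in an intron about 1.5 kb after the start reached 28.7 (A-MSCs), 22.4 (P-MSCs), 13.3 (vBM-MSCs) and 5.89 (fBM-MSCs). Both tissues with the most Csf1r RNA had the highest values there. At Cd14 the highest fold enrichment within 1 kb was 7.36 (vBM-MSCs), 6.99 (P-MSCs), 6.62 (A-MSCs) and 4.41 (fBM-MSCs). Clec10a, Adgre1, Itgam, Ptprc and Mrc1 had no summit within 1 kb in any tissue, at any q.

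Other C-type lectins were mostly at or near 0. Of 36, 26 were under 1 TPM in all libraries and 9 were tested. In P-MSCs, 1 was higher and 4 were lower than in fBM-MSCs, 2 were higher and 3 lower than in vBM-MSCs, and 1 was higher and 3 lower than in A-MSCs. These are 55.6%, 55.6% and 44.4% of the 9, against 47.7%, 38.7% and 30.9% of all genes. The one that was higher in P-MSCs than in every other tissue was Ly75, an endocytic receptor of dendritic and epithelial cells, at 3.70 ± 0.26 TPM (SD, n = 3) in P-MSCs and 1.74 ± 0.20 TPM (SD, n = 3) in fBM-MSCs (log2 fold change 0.97, SE 0.283, edgeR adjusted p = 0.0147). Mrc2, a collagen receptor of fibroblasts, was present in all tissues and lower in P-MSCs (10.9 ± 1.19 TPM) than in fBM-MSCs (35.4 ± 5.73 TPM, SD, n = 3 each, log2 fold change -1.82, SE 0.189, edgeR adjusted p = 1.67e-05). Olr1, a scavenger receptor for oxidised lipoprotein, was 4.51, 7.99 and 10.8 TPM in A-MSCs and at most 0.42 TPM in any other library.

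Interleukin-4 is known to induce Mgl2 in macrophages, and the chains of its receptors differed between tissues. Il2rg, the common gamma chain, was 2.15, 17.28 and 4.71 TPM in fBM-MSCs, 2.13, 4.23 and 2.42 TPM in P-MSCs, 1.72, 0.80 and 1.15 TPM in A-MSCs and 0.17 and 0.20 TPM in vBM-MSCs, the last from 5 and 7 counts. It was higher in P-MSCs than in vBM-MSCs (log2 fold change 3.84, SE 0.9, edgeR adjusted p = 0.00585). Il4ra was between 20.3 and 24.8 TPM in P-MSCs and 27.4 ± 2.22 TPM (SD, n = 3) in A-MSCs, lower in P-MSCs (log2 fold change -0.49, SE 0.147, edgeR adjusted p = 0.0251). Stat6, its transducer, was 40.4 ± 4.53 TPM in P-MSCs and 25.7 ± 0.96 TPM in A-MSCs (SD, n = 3 each), higher in P-MSCs (log2 fold change 0.46, SE 0.104, edgeR adjusted p = 0.007). Il13ra1 was lower in P-MSCs than in each other tissue, with log2 fold changes of -1.64, -2.08 and -1.72 against fBM-MSCs, vBM-MSCs and A-MSCs (edgeR adjusted p = 0.000696, 0.000353 and 0.00132). Il4 and Il13 were at 0 counts in all libraries. Of the 16 genes of this list, which also holds colony-stimulating factor and lipopolysaccharide receptors, 13 were tested, and 0 were higher and 6 lower in P-MSCs than in fBM-MSCs, 1 higher and 6 lower than in vBM-MSCs, and 1 higher and 3 lower than in A-MSCs. These are 46.2%, 53.8% and 30.8% of the 13, against 47.7%, 38.7% and 30.9% of all genes, so the first and the last are at the share over all genes. The lipopolysaccharide partners of Cd14 were present as well, with Tlr4 between 7.30 and 18.8 TPM and Ly96 between 53.1 and 119 TPM over all libraries.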

How the data were processed

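RNA-seq (Smart-seq2, not strand-specific) and ATAC-seq of cultured MSCs were examined. The deposited expected counts are estimates made by the authors with RSEM and STAR on mm10, not normalized. The authors' TPM and FPKM values are RSEM's values scaled for effective length. The ATAC-seq lists were deposited as MACS2 summits of pooled reads, 3 replicates per tissue, each sequenced in 2 runs, with fold enrichment as a ratio and −log10 q, which the authors computed without local background, on chromosomes 1 to 19. Tool versions are not given in the sources used here. Genes and lists were chosen with earlier results of these data known. Counts, rounded to whole numbers, entered edgeR 4.0.16 (quasi-likelihood F test, TMM, a minimum CPM of 1 in 2 or more libraries, two-sided, Benjamini-Hochberg adjusted p under 0.05), in a single model of 4 tissues and 11 libraries. The same fit was tested on simulated data. The genes named are all members, up to 3 called genes per direction, list and pair, the 5 genes most like Mgl2 by log2(TPM + 1), and neighbours within 100 kb. Other genes, and the TPM range set around Mgl2, were chosen after their values were seen. The values of 1 listed gene are not reported here. Depth was 19569650 to 40517739 counts per library. No 2 replicates agreed within sampling noise. Start sites were matched to RefSeq (GRCm38.p6) by transcript accession. Alternatives were DESeq2, limma-trend on log2(TPM + 1), other size factors, other filters, a replicate block, only 2 tissues, each library left out, FPKM, and other ATAC-seq thresholds and windows.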

Additional observations from a re-analysis of the deposited data

How the results depend on the processing

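The counts of the 10 genes called between marrow and fat stayed within 1.5 times under all 18 alternatives in each of the 3 pairs, and of 216 recomputed log2 fold changes 203 kept their direction and side of the threshold, 7 lost and 1 gained a call and 5 reversed. The reversed values were not called in either fit. Lyz2 between the marrow sources moved from -0.03 to 0.02 with the replicate block, and its leave-one-out values ranged from -0.36 to 0.38. Csf1r in that pair ranged from -0.70 to 0.40. Cd14 of fBM-MSCs over A-MSCs passed the threshold with limma-trend alone (0.58, adjusted p = 0.0497). The other macrophage genes were called 2 times by DESeq2 and 3 times by limma-trend between the marrow sources, and 0 to 2 times with a library left out. Between vBM-MSCs and A-MSCs the calls fell from 5 to 2 with limma-trend and with only the 2 tissues, and to 3 with the replicate block, and ranged from 2 to 5 with a library left out. Between P-MSCs and vBM-MSCs they fell from 5 to 2, 2 and 3 in the same settings and ranged from 3 to 5. No share over all genes is given for these settings, so the counts show only how the calls moved. The replicate numbers did not pair the libraries (15 same-numbered pairs, correlation of deviations -0.028 to 0.125, 1 over 0.1), so the block is an alternative only. With every summit, the genes with a promoter summit became 4 in fBM-MSCs and 3 in vBM-MSCs, at −log10 q of at least 20 they became 0, 0 and 1 in fBM-MSCs, vBM-MSCs and A-MSCs, and within 5 kb they became 3 in vBM-MSCs. With a pseudocount of 0.1, 3 of the 5 genes most like Mgl2 remained. In FPKM, 12 of 40 tissue means lay more than 1 SD of TPM from the TPM mean. FPKM and TPM differ by 1 scale factor per library, so this is a change of unit. For example, Mgl2 in P-MSCs was 10.12 in FPKM and 14.1 in TPM, and Lyz2 in fBM-MSCs was 19.2 in FPKM and 27.0 in TPM. The cause was not tested in the other alternatives. Depth limits the genes at 0 to a CPM under 0.153 per library.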

Other observations

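Some genes of osteoclasts, the bone-resorbing relatives of macrophages, were higher in femoral marrow cultures, while others were at or near 0 there. Of 12, 7 were tested, and 2 were higher in fBM-MSCs than in vBM-MSCs and none was lower, where 5.24% of all genes were higher and 7.56% lower. Dcstamp, needed for osteoclast fusion, was at 0 in all libraries, and Calcr and Tnfrsf11a, the receptors of calcitonin and of RANKL, were at most 0.26 and 0.08 TPM in fBM-MSCs. Atp6v0d2, a proton pump subunit of osteoclasts, was 20.9, 22.96 and 15.04 TPM in fBM-MSCs, 0.11 and 0.83 TPM in vBM-MSCs and 0 in all A-MSC and P-MSC libraries. Mmp9, a gelatinase, was 5.51, 5.64 and 8.87 TPM in fBM-MSCs and had 3 counts in all in vBM-MSCs (ratio 315, 95% counting interval 108 to 1.53e+03). Both passed the filter mostly through fBM-MSCs, where they were high, so their values and the count of 2 are a description. Ctsk, the bone collagen protease that stromal cells also express, was between 58.4 and 301 TPM in all libraries. The osteoclast markers Acp5 and Oscar did not exceed 2.77 and 2.58 TPM.

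The ligands that macrophages respond to ranged widely, and of 24, 3 were at 0 counts in all libraries and 6 under 1 TPM in all. Csf1 was between 295 and 491 TPM in all libraries. Il34, the second ligand of the CSF1 receptor, was 47.1 ± 9.30 TPM (SD, n = 3) in fBM-MSCs and 1.29 ± 0.30 TPM (SD, n = 3) in A-MSCs, the tissue with the most Csf1r (log2 fold change 5.10, SE 0.28, edgeR adjusted p = 5.85e-07). Gas6, a ligand of Mertk, was 6.73 ± 1.23 TPM (SD, n = 3) in P-MSCs, where Mertk was 2.99 TPM, and 164 ± 43.6 TPM (SD, n = 3) in fBM-MSCs (log2 fold change of P-MSCs over fBM-MSCs -4.73, SE 0.286, edgeR adjusted p = 5.32e-07). Of the 24 ligands, 18 were tested, and 3 were higher and 10 lower in P-MSCs than in fBM-MSCs, where 23% of all genes were higher and 24.7% lower. Ligands that passed the filter through a single tissue were not set apart, so this count is a description. Of 16 genes of dendritic cells and antigen presentation, 6 were tested, and 4 were lower and none was higher in P-MSCs than in fBM-MSCs, where 24.7% of all genes were lower. Of 20 genes of tissue macrophages, 6 were tested, and all 6 were lower in P-MSCs than in fBM-MSCs, while 2 were lower and 1 was higher than in A-MSCs (47.7% and 30.9% of all genes were called). Of the 6, F13a1, Cbr2 and Folr2 passed the filter only through marrow, where they were high, so these counts are a description. Neutrophil, B cell, T and NK cell, mast cell and erythroid markers had no gene that passed the filter, unlike the endothelial and epithelial markers. Some of their RNA was present below the filter. The neutrophil gene S100a8 was above 0 in every library and reached 15.4 TPM in A-MSC replicate 2, from 53 counts, while S100a9 did not exceed 0.15 TPM. Mmp8 reached 2.69 TPM in A-MSCs and Nkg7 2.74 TPM in vBM-MSCs.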
